A study of Danio rerio with 30 samples.

Results

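Claudins were followed in cells sorted from the lateral line of zebrafish larvae that lack or retain the transcription factor isl1a, with and without killing of the hair cells. The genes were chosen by name: every gene of the count table whose symbol starts with cldn, whatever its case, which gave 42 of 32520 genes. Of these, 35 had enough counts to be tested and 7 did not. RNA was sequenced from mCherry-positive cells, sorted at 5 days post fertilization from larvae that carried the she:mCherry reporter. Siblings, whose own genotype at isl1a is not stated further, and mutants for the psi97 allele of isl1a were each taken in homeostasis or 3 h after a 30 min bath in 300 uM neomycin, an antibiotic that kills lateral line hair cells. Each of these 4 groups held 3 libraries. Controls and mutants therefore shared the reporter and the age, and the groups at 3 h also shared the drug, the washes and the recovery. Whole larvae were dissociated with trypsin and sorted on mCherry alone, so the sorted cells are those that the reporter marks, and the labels do not say which promoter drives it.

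Claudins are small proteins that cross the membrane repeatedly and join neighbouring epithelial cells at tight junctions. Some members seal the space between cells, and others form channels that let chosen ions or water through, so the set a cell makes sets how leaky the sheet is. In the zebrafish lateral line cldnb is best known as a marker, since its promoter drives the reporter used to watch the migrating primordium and the support cells of the neuromast, the small sense organ in which hair cells are surrounded by support and mantle cells. Hair cells bathe their tips and their bases in different fluids, and the junctions around them keep those fluids apart.

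The libraries held 23918226 to 30354161 counts in genes. The targeted gene, listed as ISL1 (ENSDARG00000004023), had 3351 to 6634 counts in the 6 sibling libraries and 0 to 35 counts in the 6 mutant libraries. Hair cell markers (14 genes) summed to 9855 to 11583 CPM (counts of a gene scaled to a common library size) in siblings in homeostasis, 4524 to 5651 in mutants in homeostasis, 1502 to 4045 in siblings at 3 h and 873 to 1424 in mutants at 3 h. Support cell markers (9 genes, isl1a among them) lay between 2894 and 4623 CPM in all 12 libraries. Mantle markers (7 genes) summed to 587 to 617 CPM in siblings and 858 to 1198 CPM in mutants in homeostasis. At 3 h the mantle sums were 423 to 786 CPM in siblings and 956 to 1471 CPM in mutants. The genotypes did not overlap in mantle sums at either time. The neuromast label was thus met, but markers of other cells were present too. Periderm markers (9 genes) summed to 3068 to 4190 CPM and basal epidermis markers (4 genes) to 408 to 1463 CPM, and periderm and epidermis also make claudins. Exocrine pancreas markers (5 genes) summed to 666 to 4155 CPM in siblings in homeostasis and 1112 to 6853 CPM in siblings at 3 h. In mutants the pancreas sums were 415 to 1267 CPM in homeostasis and 172 to 1282 CPM at 3 h. None of the marker lists had a gene at 0 throughout a group. Among all libraries, replicate 2 of the siblings at 3 h was the most unlike the rest, with a second principal component of 129.03 where the next highest library had 35.07. Its liver marker sum was 3533 CPM, where the next highest library, sibling replicate 3 in homeostasis, had 1750 CPM. Against replicates 1 and 3 of its group, its support cell sum was 4623 CPM beside 2894 and 3088 CPM. Its hair cell sum was 4045 CPM beside 1734 and 1502 CPM, and its mantle sum was 423 CPM beside 708 and 786 CPM. Results for named claudins that rest on this library are given with and without it, and the fits without it were by edgeR only. Mutant replicate 2 at 3 h also differed from its group, with a second principal component of -5.13 where the others had -48.52 and -48.91. It held the 35 counts of ISL1, and its basal epidermis sum was 408 CPM against 677 and 705 CPM. In its group it was highest for cldnb, cldn3c, cldn7b, cldne, cldnf and cldn7a and lowest for cldni and CLDND1. In such bulk samples, fewer cells of a type and less RNA per cell cannot be told apart.

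Summed over all 42 genes, claudin transcripts were most abundant in mutants after neomycin. The sum was 1961, 2144 and 2372 CPM in siblings in homeostasis and 3156, 3654 and 2864 CPM in mutants in homeostasis. It was 2201, 6010 and 2643 CPM in siblings at 3 h and 6152, 7888 and 5720 CPM in mutants at 3 h. Mutants lay above siblings in homeostasis without overlap, and at 3 h they overlapped siblings only through sibling replicate 2, the library most unlike the rest. As a share of all counts in genes, claudins took 0.204% to 0.231% in siblings and 0.307% to 0.370% in mutants in homeostasis. At 3 h they took 0.241%, 0.454% and 0.282% in siblings and 0.587% to 0.723% in mutants. The sum itself was not tested. Just 3 genes, cldnb, cldn3c and cldn7b, took 83.7% to 91.6% of the claudin counts of a library. The share of cldne was 1.47% to 1.98% in siblings in homeostasis, 2.01% to 3.84% in mutants in homeostasis and 1.06% to 2.04% in siblings at 3 h, and it was 5.85% to 6.24% in mutants at 3 h. Shares are of reads, and a longer transcript gives more of them, so they do not rank the genes by number of molecules.

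**Figure D1:**
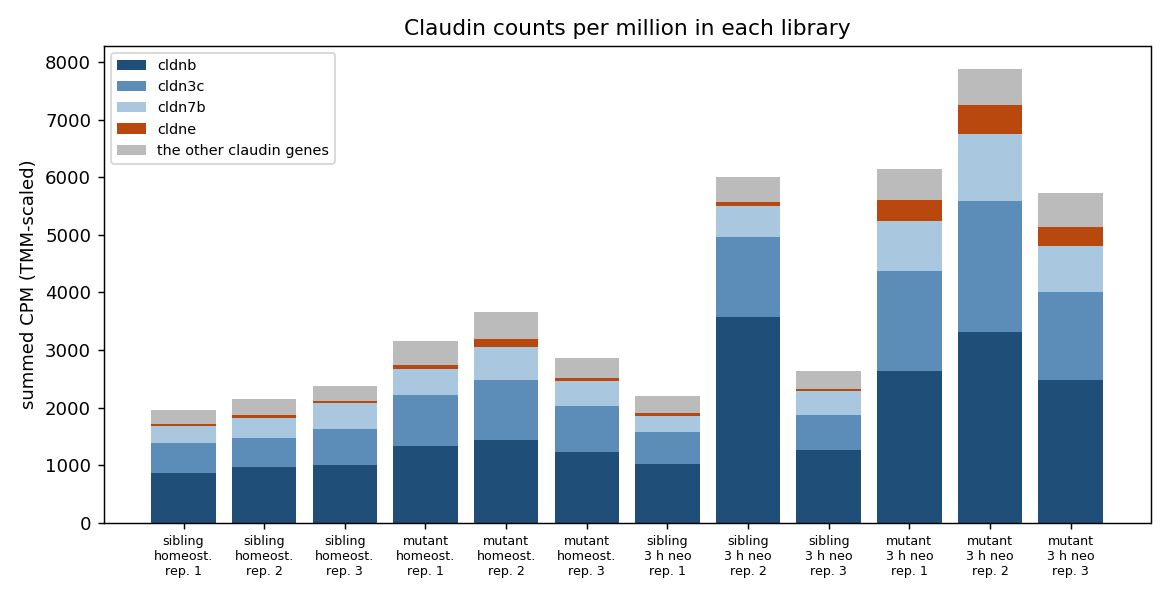
Summed claudin CPM in each of the 12 libraries (one bar per library, split by gene). The 3 mutant libraries at 3 h reach 5720 to 7888 CPM, and among the siblings at 3 h replicate 2, at 6010 CPM, stands above the others at 2201 and 2643 CPM.

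With 1 exception, the claudin genes that differed between mutants and siblings were higher in mutants. All tests below are by edgeR's quasi-likelihood method, adjusted by Benjamini-Hochberg over 22000 genes. Genes with an adjusted p under 0.05 are called, and only these are said to be higher or lower or to have risen or fallen. In homeostasis 4 of the 35 tested claudin genes were higher in mutants and 0 were lower by edgeR's quasi-likelihood test, where 3.57% of all tested genes were called (1.85% higher and 1.72% lower). At an unadjusted p under 0.05, 10 were higher and 1 lower, and DESeq2's Wald test called 7 higher and 0 lower. Over all genes DESeq2 also called more in this comparison, 1827 against 785 by edgeR. The share of all genes at an unadjusted p under 0.05 was not counted in any comparison, so no unadjusted count here or below has a background beside it. At 3 h 10 were higher and 1 was lower, where 9.78% of all tested genes were called (4.9% higher and 4.88% lower). The median log2 fold change of the 35 genes was 0.49 in homeostasis and 0.41 at 3 h, against 0.01 and -0.14 over all tested genes. The same 4 genes that were higher in homeostasis, both CLDN5 genes, cldnf and cldni, were also higher at 3 h. These comparisons use different libraries but a spread estimated from all 12. In homeostasis the count of 4 dropped to 1 without sibling replicate 2 and to 2 without sibling replicate 3 or mutant replicate 1 or 2. Over all genes the number higher went from 407 to 185, 220, 203 and 225 in those fits, in that order. At 3 h the count of 10 dropped to 6 without mutant replicate 3, and the 1 lower gene was lost without sibling replicate 1 or mutant replicate 1 or 3. The number of all genes higher at 3 h went from 1077 to 593 without mutant replicate 3. All calls there went from 2151 to 2172 without sibling replicate 1, 943 without mutant replicate 1 and 896 without mutant replicate 3.

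Without replicate 2 of the siblings at 3 h, 8 claudin genes were higher in homeostasis (9.18% of all genes called) and 13 were higher and 1 lower at 3 h (13.1% called), with a median log2 fold change of 0.93 at 3 h. Homeostasis is affected although that library takes no part in it, since the spread, the low-count filter and the scaling are all set over the 4 groups. Which of these moved the calls was not tested. Without mutant replicate 2 at 3 h, the median claudin log2 fold change at 3 h was 0.39, with 1527 of all genes called. Libraries did not overlap between genotypes for 16 claudin genes in homeostasis, 13 higher and 3 lower in mutants, beside 14.5% of all genes not overlapping upward and 15.4% downward. At 3 h 14 claudin genes did not overlap upward and 2 downward, beside 12.3% and 13.6% of all genes. Markers of several cell types moved with genotype as well. Of 14 hair cell markers 4 were lower in mutants at each time, and of 7 mantle markers 2 were higher at each time. Erythrocyte markers (6 genes) summed to 114 to 208 CPM in siblings and 938 to 1325 CPM in mutants in homeostasis, with 6 of 6 called higher, and skeletal muscle markers (10 genes) to 44.8 to 63.7 and 144 to 250 CPM, with 6 of 10 called higher. At 3 h 2 erythrocyte markers and 0 muscle markers were called. Their part in the claudin differences was not tested.

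**Figure D2:**
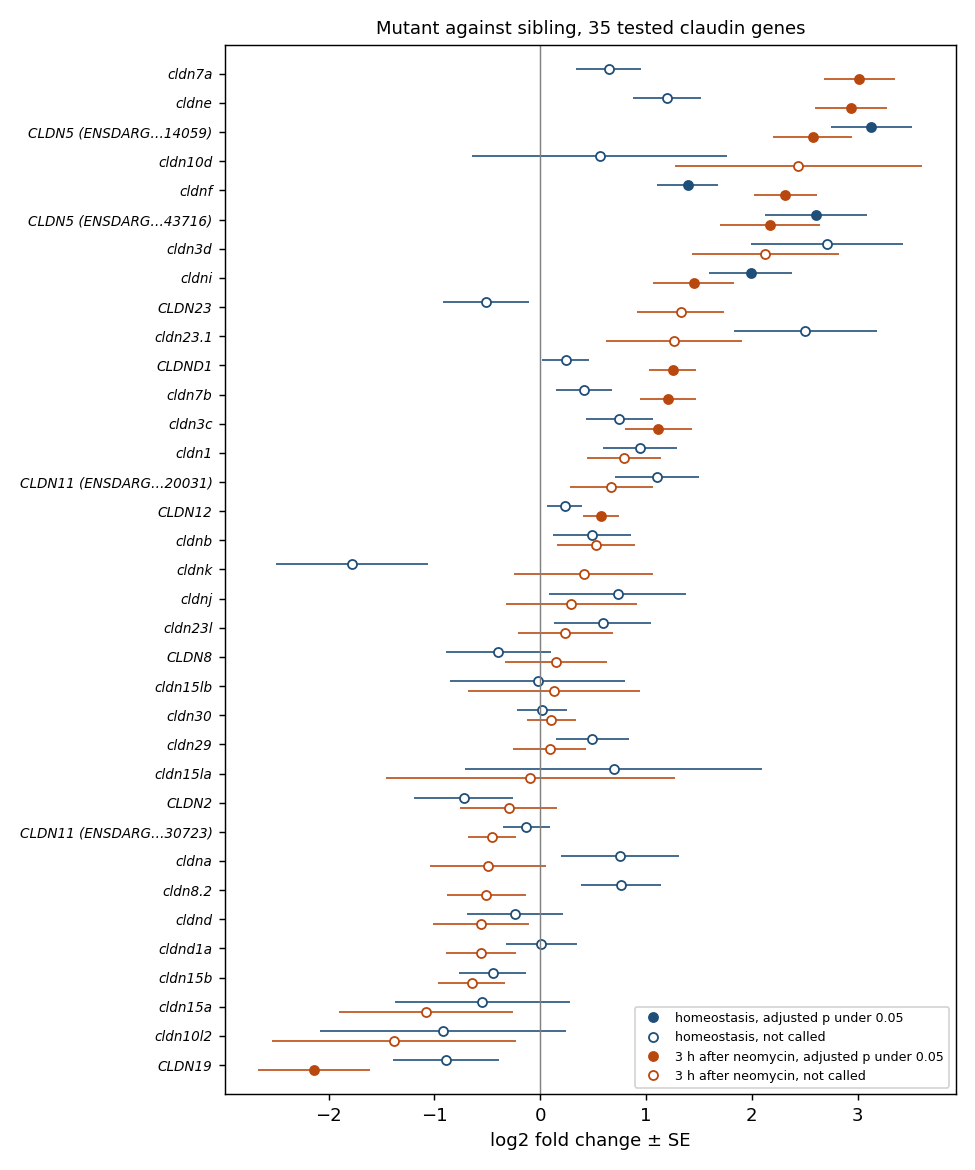
Log2 fold change ± SE of mutants against siblings for each of the 35 tested claudin genes, in homeostasis and 3 h after neomycin. Values above 0 are higher in mutants; cldn7a reaches 3.02 and cldne 2.94 at 3 h, and both CLDN5 genes lie above 2 in both comparisons.

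Of the 3 genes that take most counts, cldnb and cldn3c lie in 1 run of claudin genes. In the gene order of RefSeq's table for the GRCz12tu assembly, which is not the build of the counts, cldn3c, cldn3d, cldnb, cldn29, cldnd and cldn30 are neighbours, with cldn28 between cldnd and cldn30. That table gives cldnh as an older name of cldn3c and cldnc as one of cldn3d. Of these 6 genes only cldn3c passed edgeR's quasi-likelihood test on all 12 libraries in any comparison.

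The lateral line marker cldnb had 870, 972 and 1005 CPM in siblings and 1327, 1443 and 1227 CPM in mutants in homeostasis. At 3 h it had 1027, 3573 and 1259 CPM in siblings and 2640, 3312 and 2477 CPM in mutants. Every mutant library exceeded every sibling library in homeostasis, and at 3 h the single sibling library above the mutants was replicate 2. Mutants against siblings, cldnb had a log2 fold change of 0.49 in homeostasis (adjusted p = 0.618) and 0.52 at 3 h (adjusted p = 0.393), neither of which passed. From homeostasis to 3 h it had a log2 fold change of 1.04 in siblings (adjusted p = 0.0633) and 1.08 in mutants (adjusted p = 0.0681). With that 1 library left out, the genotype difference at 3 h and the sibling response changed in size, and the mutant response hardly did. Without replicate 2 of the siblings at 3 h, the log2 fold change of mutants against siblings at 3 h was 1.31 ± 0.17 (SE, adjusted p = 0.000533) and that of neomycin in mutants 1.06 (adjusted p = 0.000199). The response of siblings then had a log2 fold change of 0.22 (adjusted p = 0.367). It passed at 1.29 without replicate 1 of the siblings at 3 h (adjusted p = 0.0144) and at 1.28 without their replicate 3 (adjusted p = 0.0345). The sibling response also passed with DESeq2's Wald test (adjusted p = 0.03) and without composition scaling (adjusted p = 0.0348). The mutant response passed without that sibling replicate 1 (adjusted p = 0.0304) and with DESeq2's Wald test (adjusted p = 0.0176). It also passed without composition scaling (adjusted p = 0.0216), with the replicate as a block (adjusted p = 0.0327) and with only the 2 groups compared (adjusted p = 0.000645). The genotype difference in homeostasis passed only when the 2 groups compared were fitted alone (adjusted p = 0.0498).

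Its neighbour cldn3c followed the same pattern of libraries. It had 516, 496 and 617 CPM in siblings and 887, 1041 and 807 CPM in mutants in homeostasis. After neomycin its values were 545, 1390 and 613 CPM in siblings and 1724, 2269 and 1535 CPM in mutants. Mutants were above siblings in every library at both times, and replicate 2 was again the highest of its group. At 3 h cldn3c was higher in mutants by a log2 fold change of 1.12 ± 0.32 (adjusted p = 0.0437), and it rose after neomycin in mutants by 1.02 ± 0.32 on the log2 scale (adjusted p = 0.0448). Both calls sit at the threshold: the first was lost in all fits without 1 library except the one without replicate 2 of the siblings at 3 h (adjusted p 0.0502 to 0.12), and the second was lost without any 1 library of the siblings in homeostasis or of the mutants (adjusted p 0.0588 to 0.155). The first was also lost when only the 2 groups compared were fitted (adjusted p = 0.136). Without replicate 2 of the siblings at 3 h, cldn3c was higher in mutants at 3 h by 1.68 on the log2 scale (adjusted p = 0.000324) and also in homeostasis, by 0.72 (adjusted p = 0.0158). With all libraries the difference in homeostasis was 0.75 (adjusted p = 0.258).

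The other genes of this run had lower counts. At the end of the run, cldn30 had 32.3, 46.0 and 58.6 CPM in siblings and 46.6, 50.7 and 41.1 CPM in mutants in homeostasis. Its level at 3 h was 32.0, 42.2 and 44.6 CPM in siblings and 40.0, 51.4 and 36.3 CPM in mutants. Its groups overlapped in every comparison, and its adjusted p was above 0.05 in each. Next to cldnb, cldn29 had 19.2, 25.1 and 20.8 CPM in siblings and 29.2, 32.8 and 29.5 CPM in mutants in homeostasis. Its values at 3 h were 19.4, 63.2 and 24.4 CPM in siblings and 38.3, 41.3 and 34.1 CPM in mutants. Genotypes were apart in homeostasis, and at 3 h replicate 2 was the single sibling library above the mutants. The log2 fold change of mutants against siblings was 0.49 in homeostasis (adjusted p = 0.581) and 0.09 at 3 h (adjusted p = 0.895), and at 3 h it was 0.80 without that library (adjusted p = 0.00984). The response of cldn29 to neomycin was 0.71 on the log2 scale for siblings (adjusted p = 0.165) and 0.31 for mutants (adjusted p = 0.617). For siblings it was -0.03 without replicate 2 at 3 h (adjusted p = 0.92), and it passed at 0.95 without their replicate 1 at 3 h (adjusted p = 0.0414).

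The remaining neighbours, cldn3d and cldnd, lay between 0.328 and 13.6 CPM. The difference of cldn3d between genotypes, named after its values were seen, was 2.71 on the log2 scale in homeostasis (adjusted p = 0.0585) and 2.13 at 3 h (adjusted p = 0.0738). DESeq2's Wald test called cldn3d at both times (adjusted p 0.00198 and 0.0126). In homeostasis its genotypes overlapped, and mutant replicate 2 had 13.6 CPM where the other mutant libraries had 4.41 and 1.51 CPM. The genotypes did not overlap at 3 h. At 3 h cldn3d also passed in edgeR with the replicate as a block (adjusted p = 0.0184), though the labels do not say that the replicate numbers pair libraries.

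A second run of neighbours was cldnj, cldne, cldnf and cldna, of which cldne and cldnf were higher in mutants at 3 h. In zebrafish cldne is made by the enveloping layer, the outermost sheet of the early embryo, and is needed for that sheet to spread over the yolk, and cldnj is needed for otoliths to form in the ear. For cldne and cldnf every mutant library at 3 h lay above every library of the other groups.

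Levels of cldne were 28.8, 42.5 and 44.2 CPM in siblings and 67.2, 140 and 57.7 CPM in mutants in homeostasis. At 3 h they were 45.0, 63.6 and 46.9 CPM in siblings and 367, 492 and 335 CPM in mutants. All mutant libraries lay above all sibling libraries at both times, and the mutant libraries at 3 h stood clear of the other 9, replicate 2 of the siblings included. At 3 h cldne was 7.68-fold higher in mutants (log2 fold change 2.94 ± 0.34, adjusted p = 0.000417), and it rose 4.51-fold after neomycin in mutants (2.17 ± 0.33, adjusted p = 0.000831). Both calls held in every alternative run. In siblings the response was 0.43 on the log2 scale (adjusted p = 0.379). In homeostasis the difference between genotypes was 1.20 ± 0.32 (adjusted p = 0.062), and it passed without replicate 2 of the siblings at 3 h (adjusted p = 0.0287) and with DESeq2 (adjusted p = 0.0118). Without mutant replicate 2 in homeostasis, the highest library of its group, that difference of cldne was 0.69 (adjusted p = 0.251).

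Its neighbour cldnf had 11.1, 6.76 and 10.8 CPM in siblings and 27.7, 29.2 and 18.6 CPM in mutants in homeostasis. At 3 h it had 11.1, 14.2 and 9.50 CPM in siblings and 50.1, 79.0 and 44.2 CPM in mutants. The order of the groups was that of cldne, with no overlap between genotypes at either time. It was higher in mutants by 1.39 ± 0.29 on the log2 scale in homeostasis (adjusted p = 0.0195) and by 2.32 ± 0.30 at 3 h (adjusted p = 0.000672). It rose after neomycin in mutants by 1.20 ± 0.28 (adjusted p = 0.0123), and its response in siblings was 0.28 (adjusted p = 0.545). The call in homeostasis was lost without sibling replicate 2 or 3 or mutant replicate 1 or 2 in homeostasis (adjusted p 0.0529 to 0.0964). The rise in mutants was lost without mutant replicate 3 in homeostasis or mutant replicate 2 at 3 h (adjusted p 0.062 in each).

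The genes on either side of this pair did not pass edgeR's test on all libraries in any comparison. At one end cldnj had 0.0700 to 0.401 CPM in all libraries. At the other end cldna had 4.03 to 36.7 CPM, with its highest value in replicate 2 of the siblings at 3 h. The response of cldna in siblings was 1.59 on the log2 scale (adjusted p = 0.0618), and 0.85 without that library (adjusted p = 0.273).

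**Figure D3:**
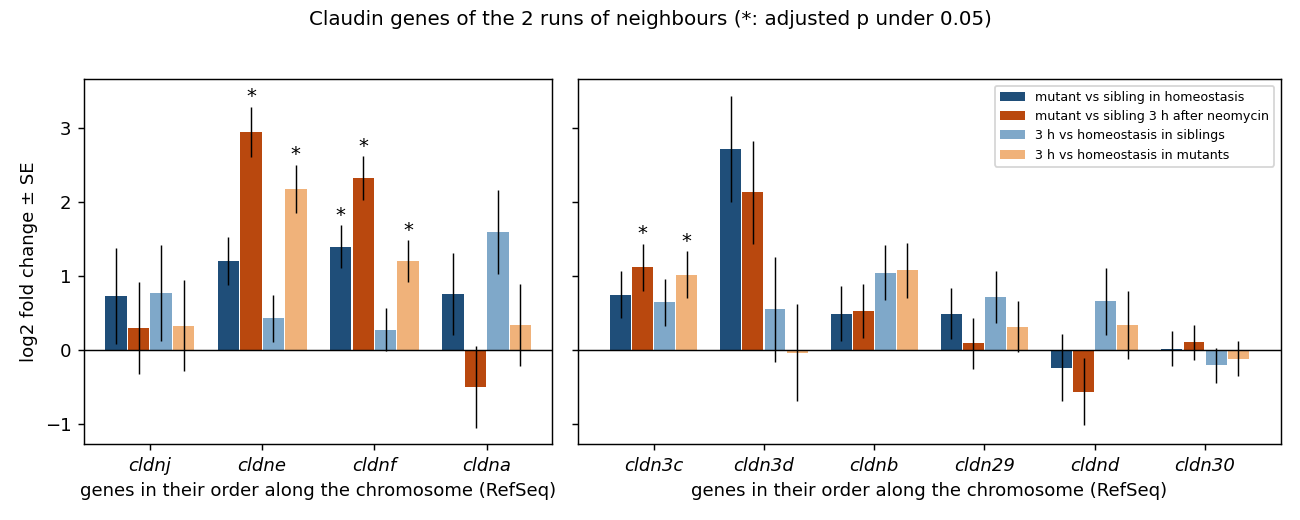
Log2 fold change ± SE for the genes of the cldn3c to cldn30 run and the cldnj to cldna run in the 4 comparisons, with an asterisk at an adjusted p under 0.05. In the second run cldne and cldnf carry 5 of the asterisks and their outer neighbours carry none, and in the first run only cldn3c carries any.

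The pair of claudin 7 genes differed between genotypes after neomycin, and only one of the pair fell in siblings. In mammals claudin 7 lies along the sides of epithelial cells as well as at their tight junctions. The more strongly counted gene, cldn7b, had 292, 355 and 450 CPM in siblings and 458, 576 and 426 CPM in mutants in homeostasis. After neomycin its values were 284, 544 and 409 CPM in siblings and 882, 1178 and 796 CPM in mutants. Genotypes overlapped in homeostasis and were apart at 3 h. It was higher in mutants at 3 h by 1.21 ± 0.27 on the log2 scale (adjusted p = 0.0143). The call was kept without any 1 library and lost when only the 2 groups compared were fitted (adjusted p = 0.0577). The gene rose after neomycin in mutants by 0.97 ± 0.26 (adjusted p = 0.0244). That rise was lost without mutant replicate 1 or 3 in homeostasis or mutant replicate 2 at 3 h (adjusted p 0.0949 to 0.103). In siblings the response of cldn7b was 0.17 (adjusted p = 0.688).

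Levels of cldn7a were low throughout, at 2.76, 2.80 and 1.79 CPM in siblings and 4.11, 4.04 and 3.36 CPM in mutants in homeostasis. Its level at 3 h was 0.799, 0.610 and 0.608 CPM in siblings and 4.93, 7.32 and 4.20 CPM in mutants. All 3 sibling libraries fell below every homeostasis library after neomycin, while all 3 mutant libraries at 3 h lay above every other library. It was 8.08-fold higher in mutants at 3 h (log2 fold change 3.02 ± 0.34, adjusted p = 0.000323). In siblings it fell by 1.85 ± 0.33 on the log2 scale (adjusted p = 0.00167), and in mutants it had a log2 fold change of 0.51 (adjusted p = 0.292). The genotype difference at 3 h and the fall in siblings held in every alternative. The difference between the responses was 2.37 ± 0.44 on the log2 scale (adjusted p = 0.0855), and 2.33 without replicate 2 of the siblings at 3 h (adjusted p = 0.0362).

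**Figure D4:**
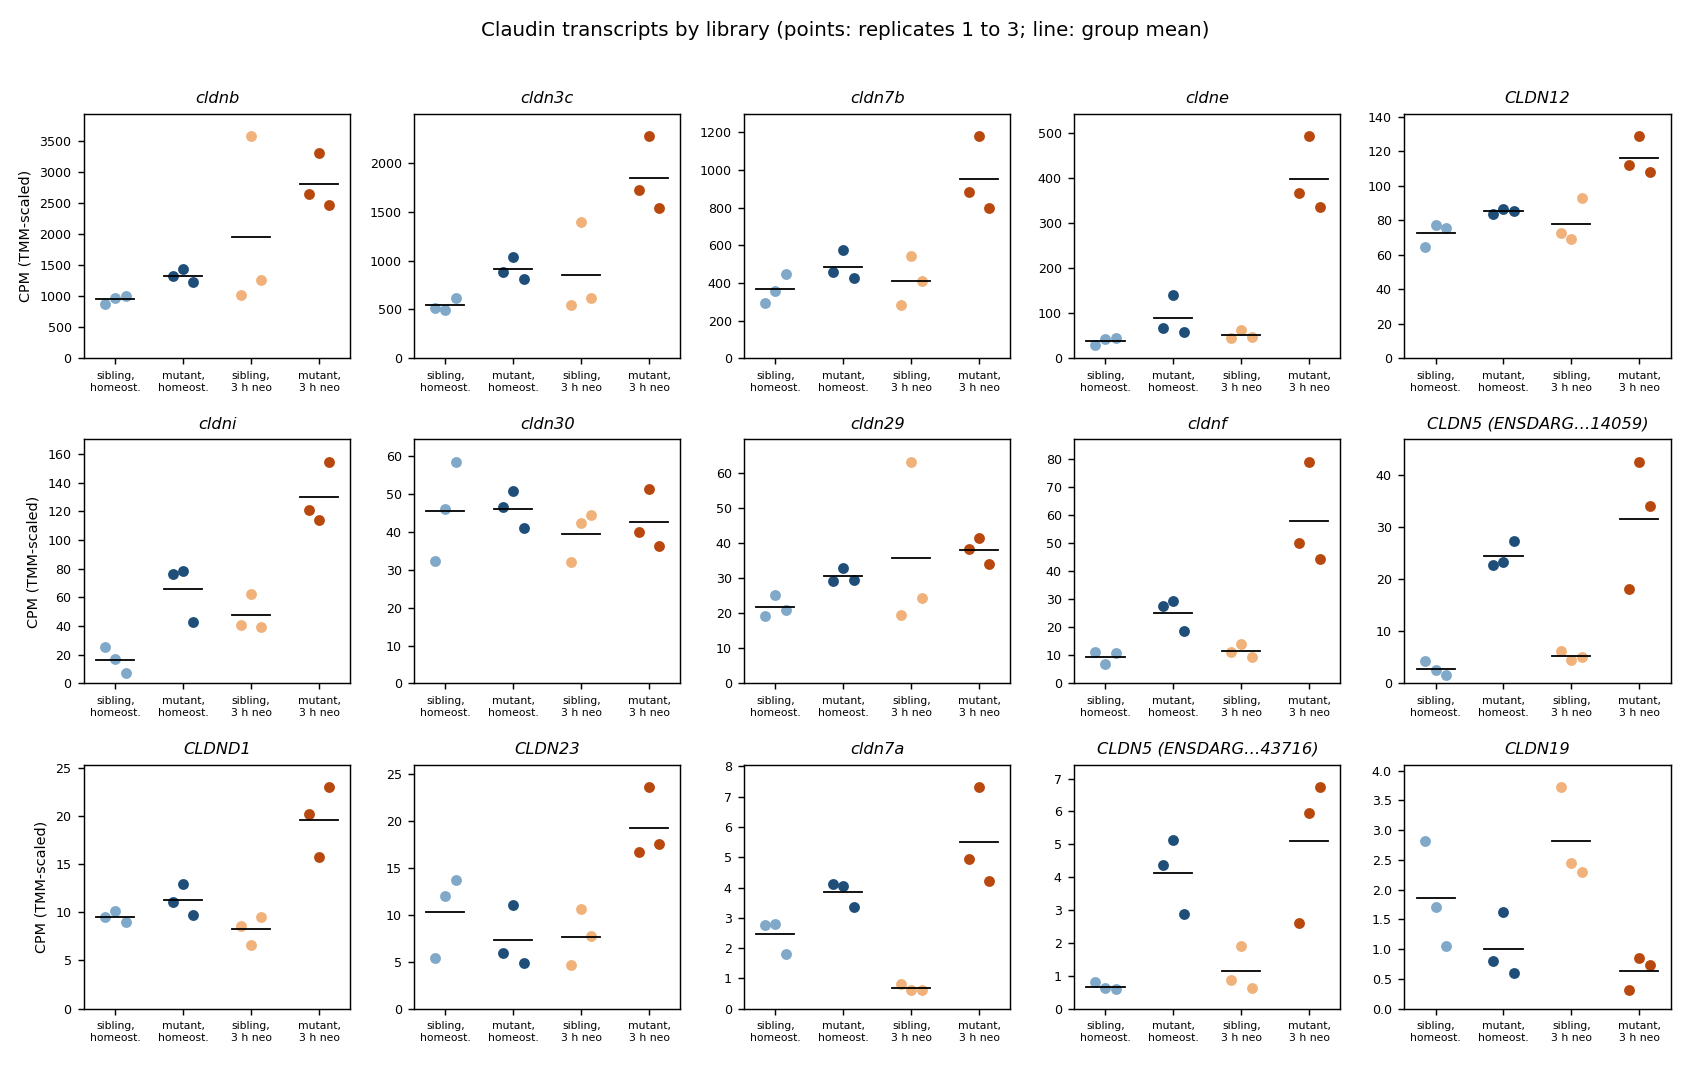
CPM of the named claudin genes in each library (points are replicates 1 to 3, lines are group means, each panel with its own axis from 0). For cldne, cldnf and cldn7a the 3 mutant libraries at 3 h lie above all others, while cldnb and cldn29 show 1 sibling library at 3 h far above its group.

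Both genes named CLDN5 were higher in mutants at both times. In mammals claudin 5 seals the junctions of blood vessel walls, above all in the brain. The name table gives both the human symbol without a paralog letter, so they are told apart by Ensembl ID. The first, ENSDARG00000014059, had 4.23, 2.59 and 1.53 CPM in siblings and 22.7, 23.3 and 27.4 CPM in mutants in homeostasis. At 3 h it had 6.32, 4.58 and 5.00 CPM in siblings and 18.1, 42.6 and 34.2 CPM in mutants. The genotypes did not overlap at either time. In homeostasis it was 8.74-fold higher in mutants (log2 fold change 3.13 ± 0.38, adjusted p = 0.00113), the largest claudin difference there, and at 3 h 5.96-fold higher (2.57 ± 0.37, adjusted p = 0.00134). Both calls held in every alternative, and the gene passed in neither neomycin comparison, where its log2 fold change was 0.92 for siblings (adjusted p = 0.0908) and 0.37 for mutants (adjusted p = 0.541).

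The second, ENSDARG00000043716, had 0.801, 0.630 and 0.584 CPM in siblings and 4.38, 5.14 and 2.87 CPM in mutants in homeostasis. After neomycin its values were 0.865, 1.92 and 0.642 CPM in siblings and 2.61, 5.96 and 6.75 CPM in mutants. Its genotypes were also apart at both times, by 2.61 ± 0.48 on the log2 scale in homeostasis (adjusted p = 0.0116) and 2.17 ± 0.47 at 3 h (adjusted p = 0.0133). The first call was lost without sibling replicate 2 or 3 in homeostasis (adjusted p 0.0519 to 0.0629) and the second without mutant replicate 3 at 3 h (adjusted p = 0.0618). The second call was also lost when only the 2 groups compared were fitted (adjusted p = 0.0654). Endothelial markers (6 genes) summed to 35.9 to 73.6 CPM in siblings and 100 to 103 CPM in mutants in homeostasis, and to 39.1 to 106 CPM and 71.1 to 94.0 CPM at 3 h. Of these 6, flt1, a receptor for vascular growth factor, was the only one higher in mutants, in homeostasis by 1.06 on the log2 scale (adjusted p = 0.0435) and at 3 h by 1.68 (adjusted p = 0.00226). Their part in the CLDN5 difference was not tested.

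In the next group, cldn1, cldni and 3 genes of the claudin 23 type, cldni stood out. Claudin 1 is the main sealing claudin of mammalian epidermis. Levels of cldni were 25.5, 16.8 and 7.26 CPM in siblings and 76.6, 78.2 and 42.7 CPM in mutants in homeostasis. At 3 h they were 40.6, 62.2 and 39.6 CPM in siblings and 121, 114 and 155 CPM in mutants. Every mutant library lay above every sibling library at both times. Within each genotype every library at 3 h lay above every library in homeostasis. The gene was higher in mutants by 1.99 ± 0.39 on the log2 scale in homeostasis (adjusted p = 0.015) and by 1.45 ± 0.38 at 3 h (adjusted p = 0.033). By edgeR's test on all libraries it was also the only claudin to rise after neomycin in siblings, by 1.52 ± 0.39 (adjusted p = 0.0139), where DESeq2's Wald test called 5, and its response in mutants was 0.98 (adjusted p = 0.103).

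Each of these 3 calls of cldni depended on single libraries. The first was lost without sibling replicate 2 or mutant replicate 1 or 2 in homeostasis (adjusted p 0.0581 to 0.0719). The second was lost without sibling replicate 1 or 3 or any mutant replicate at 3 h (adjusted p 0.0533 to 0.119), and the third without sibling replicate 2 in homeostasis (adjusted p = 0.0515). The third was also lost when only the 2 groups compared were fitted (adjusted p = 0.066). In mutants the response passed without sibling replicate 3 in homeostasis (adjusted p = 0.0388). In the RefSeq table cldni overlaps coro1a, an actin-binding gene of leukocytes, and the library kit does not mark strand, so reads from the overlap cannot be told apart. Levels of coro1a averaged 10.97 CPM in siblings and 15.8 CPM in mutants in homeostasis and 36.2 and 25.8 CPM at 3 h, and its part in the cldni values was not tested. Of 9 periderm markers, 0 were called between genotypes in homeostasis by edgeR's quasi-likelihood test. At 3 h, 3 periderm markers were lower in mutants and 0 higher. Basal epidermis markers (4 genes) summed to 1009 to 1250 CPM in siblings and 1281 to 1463 CPM in mutants in homeostasis. At 3 h their sums were 463 to 1019 CPM in siblings and 408 to 705 CPM in mutants. Of these 4 genes 1 was higher in mutants in homeostasis, and 1 was lower at 3 h. The part of either list in the cldni values was not tested.

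The gene listed as CLDN23 (ENSDARG00000103703) had 5.35, 12.01 and 13.7 CPM in siblings and 5.89, 11.02 and 4.90 CPM in mutants in homeostasis. Its level at 3 h was 4.63, 10.6 and 7.78 CPM in siblings and 16.7, 23.6 and 17.5 CPM in mutants. The mutant libraries at 3 h were above all others. It rose after neomycin in mutants by 1.41 ± 0.41 on the log2 scale (adjusted p = 0.0339), which was lost without mutant replicate 1 or 3 in homeostasis or any mutant replicate at 3 h (adjusted p 0.059 to 0.139). At 3 h it differed between genotypes by 1.33 (adjusted p = 0.0599), and by 1.64 without replicate 2 of the siblings (adjusted p = 0.0302). That difference of CLDN23 also passed with the replicate as a block (adjusted p = 0.0119) and in DESeq2 (adjusted p = 0.0125). The others, cldn1, cldn23.1 and cldn23l, lay between 0.338 and 21.2 CPM and passed in no comparison by edgeR on all libraries. Named after its values were seen, cldn23.1 had no overlap between genotypes in homeostasis, with a log2 fold change of 2.51 (adjusted p = 0.065), and it passed in DESeq2 (adjusted p = 0.00281). Mutant replicate 2 in homeostasis had 21.2 CPM of cldn23.1, where the other mutant libraries had 4.34 and 2.80 CPM.

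CLDN12 (ENSDARG00000003927) and CLDND1 (ENSDARG00000052386) belong to the distant branches of the family. In mammals claudin 12 lacks the tail motif by which most claudins bind the scaffold beneath the junction, and CLDND1 is a claudin-like protein. Neither was called between genotypes in homeostasis, and both were higher in mutants at 3 h. CLDN12 had 64.4, 77.5 and 75.8 CPM in siblings and 83.5, 86.3 and 85.5 CPM in mutants in homeostasis. At 3 h it had 72.4, 69.1 and 92.7 CPM in siblings and 112, 129 and 108 CPM in mutants. Mutant libraries of CLDN12 lay above all sibling libraries at both times, and its log2 fold change in homeostasis was 0.23 (adjusted p = 0.598). The difference at 3 h was 0.57 ± 0.17 on the log2 scale (adjusted p = 0.0491), at the threshold. It was lost in 10 of the 12 fits without 1 library (adjusted p 0.0503 to 0.129), the exceptions being those without replicate 2 or 3 of the siblings at 3 h. Fits without composition scaling (adjusted p = 0.0985), without the low-count filter (adjusted p = 0.0667) and of only the 2 groups compared (adjusted p = 0.193) also lost it.

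CLDND1 had 9.52, 10.1 and 8.98 CPM in siblings and 11.1, 12.97 and 9.77 CPM in mutants in homeostasis. After neomycin its values were 8.56, 6.58 and 9.57 CPM in siblings and 20.2, 15.7 and 23.0 CPM in mutants. Only the mutant libraries at 3 h stood apart. Its difference between genotypes at 3 h was 1.25 ± 0.22 on the log2 scale (adjusted p = 0.00448). The call was kept without any 1 library and lost when only the 2 groups compared were fitted (adjusted p = 0.0549). The rise in mutants was 0.80 ± 0.22 (adjusted p = 0.0252), lost without any mutant replicate in homeostasis or mutant replicate 1 or 3 at 3 h (adjusted p 0.0515 to 0.126). It was also lost without composition scaling (adjusted p = 0.0929) and without the low-count filter (adjusted p = 0.0513). The third gene of this kind, cldnd1a, lay between 2.86 and 9.59 CPM and passed edgeR's test on all libraries in no comparison. DESeq2's Wald test called it higher at 3 h than in homeostasis in siblings (adjusted p = 0.0494). In edgeR its log2 fold change there was 0.87 (adjusted p = 0.083), and 0.46 without replicate 2 of the siblings at 3 h (adjusted p = 0.321).

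The single claudin lower in mutants was CLDN19 (ENSDARG00000044569), a claudin of myelinating Schwann cells and of kidney tubules in mammals. It had 2.82, 1.72 and 1.06 CPM in siblings and 0.808, 1.62 and 0.595 CPM in mutants in homeostasis. Its level at 3 h was 3.73, 2.44 and 2.30 CPM in siblings and 0.321, 0.852 and 0.742 CPM in mutants. The genotypes overlapped in homeostasis and were apart at 3 h. At 3 h it was lower in mutants by a log2 fold change of -2.14 ± 0.53 (adjusted p = 0.0245). The call was lost without sibling replicate 1 or mutant replicate 1 or 3 at 3 h (adjusted p 0.0601 to 0.0976). A fit of only the 2 groups compared lost it too (adjusted p = 0.0607). RefSeq places CLDN19 over unnamed genes, with which it may share reads.

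The other claudins known from myelin, both CLDN11 genes and cldnk, which is made by myelinating glia in zebrafish, passed edgeR's test on all libraries in no comparison. DESeq2's Wald test called cldnk higher at 3 h than in homeostasis in mutants (adjusted p = 0.0463). The CLDN11 genes lay between 6.90 and 37.9 CPM and cldnk between 0.0350 and 0.742 CPM. Markers of myelinating glia (7 genes) summed to 55.9 to 64.1 CPM in siblings and 64.6 to 79.4 CPM in mutants in homeostasis, and to 77.6 to 104 CPM and 101 to 113 CPM at 3 h. These sums were apart between genotypes in homeostasis and overlapped at 3 h. Their part in the values of these claudins was not tested.

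Claudins of ion-transporting epithelia such as kidney, gut and ionocytes were scarce, and none was called. This group held 12 genes of the CLDN2, CLDN8, CLDN10 and cldn15 types, of which 9 were tested and 0 passed edgeR's quasi-likelihood test in any comparison. At an unadjusted p under 0.05, 1 rose after neomycin in siblings, cldn8.2, a rise that DESeq2's Wald test also called. The same gene, cldn8.2, was the 1 with a lower response in mutants at an unadjusted p under 0.05. No gene of the group exceeded 12.3 CPM in any library. Between mutants and siblings their log2 fold changes ran from -0.92 to 0.76 in homeostasis and from -1.38 to 2.44 at 3 h. Ionocyte markers (9 genes) summed to 601 to 1074 CPM. Without replicate 2 of the siblings at 3 h, the gene CLDN10 (ENSDARG00000104528) entered the test and was called higher in siblings at 3 h than in homeostasis (adjusted p = 0.0275), on 0.333 and 1.35 CPM in the remaining 2 libraries and 0.0000 to 0.0641 CPM in homeostasis.

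The 7 claudin genes that did not pass the low-count filter were cldng, cldn33b, cldn10e, both CLDN10 genes (ENSDARG00000058937 and ENSDARG00000104528), cldn26 and cldn18. Their highest count in any library was 40, in CLDN10 (ENSDARG00000104528). cldn18, which encodes a claudin of lung and stomach in mammals, had 0 counts in all 12 libraries.

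After neomycin few claudins passed in siblings, and those that passed in mutants all rose. In siblings 1 of 35 rose, cldni, and 1 fell, cldn7a, where 22% of all tested genes were called. At an unadjusted p under 0.05 7 rose and 1 fell in siblings, and DESeq2's Wald test called 5 and 1. Over all genes DESeq2 called 6022 there, against 4831 by edgeR. Each of the 5 claudin rises by DESeq2 had its highest sibling value in replicate 2 at 3 h. In mutants 6 rose, namely cldne, cldnf, cldn7b, CLDND1, CLDN23 and cldn3c, and 0 fell by edgeR's quasi-likelihood test, where 16.5% of all tested genes were called. At an unadjusted p under 0.05 10 rose and 0 fell in mutants, and DESeq2's Wald test called the same numbers. All genes were not counted at the unadjusted cut in either genotype. Over all genes DESeq2 called 4832 in mutants, against 3634 by edgeR. By direction, 11.2% of all genes rose and 10.8% fell in siblings, and 6.95% rose and 9.56% fell in mutants. By edgeR's test on all libraries 0 claudins were called in both genotypes, and DESeq2's Wald test called 2 in both, cldnb and cldni. The median log2 fold change of the 35 genes was 0.60 in siblings and 0.37 in mutants, against 0.10 and -0.04 over all genes. Without replicate 2 the median in siblings was 0.08, 2 genes rose and 1 fell (22.3% of all genes called). In mutants the median was then 0.35 and 8 genes rose (27.2% called), with cldnb and CLDN12 added.

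Libraries at 3 h did not overlap those in homeostasis for 8 claudins upward and 1 downward in siblings, beside 17.5% and 17.2% of all genes. In mutants 17 did not overlap upward and 0 downward, beside 20.8% and 22.7%. Hair cell markers fell over the same step in both genotypes, with 12 of 14 genes called lower in each, and 2 of 7 mantle markers rose in mutants. Of 9 periderm markers 4 rose and 1 fell in siblings and 2 fell in mutants. In siblings 4 of 6 erythrocyte markers rose, and in mutants 3 of 10 skeletal muscle markers fell. Their part in the claudin changes was not tested. The number of claudins that rose in mutants was 1 without mutant replicate 3 in homeostasis, 2 without mutant replicate 1 in homeostasis or replicate 2 at 3 h, and 3 without mutant replicate 1 or 3 at 3 h. Among all genes 1530 rose in mutants with all libraries, and 832, 786, 880, 1098 and 985 in those fits, in that order. In siblings the number of claudins was 0 without sibling replicate 2 in homeostasis, 2 without sibling replicate 1 or mutant replicate 3 in homeostasis, and 4 without sibling replicate 1 or 3 at 3 h. Among all genes 2464 rose in siblings with all libraries, and 1324, 1768, 1914, 2731 and 2565 in those fits, in that order.

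**Figure D5:**
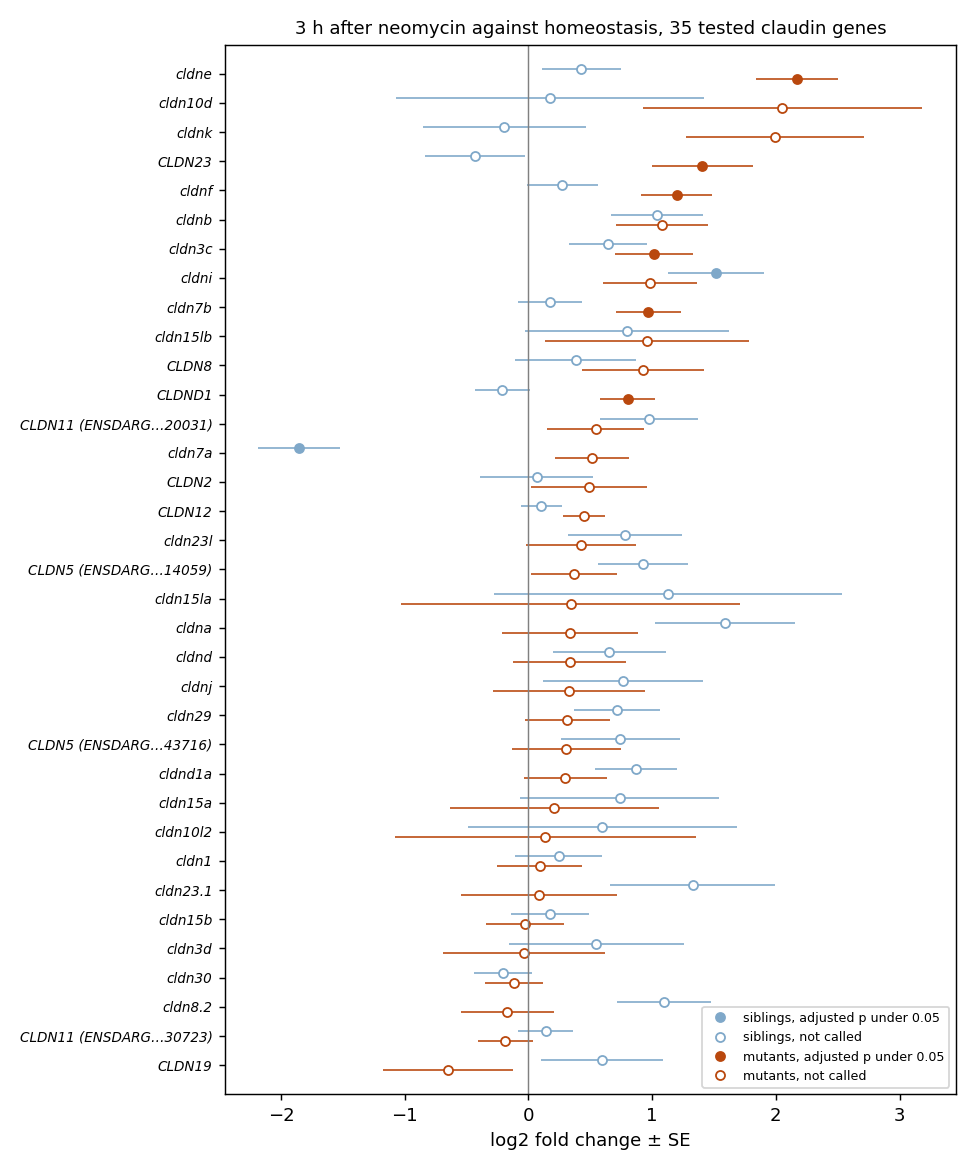
Log2 fold change ± SE of 3 h after neomycin against homeostasis for the 35 tested claudin genes, in siblings and in mutants. In siblings cldn7a lies lowest at -1.85, and in mutants cldne lies highest at 2.17.

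Whether the responses themselves differ between genotypes was tested by an interaction term. Of the 35 genes 0 passed edgeR's quasi-likelihood test, where 0.105% of all tested genes were called (0.1% higher and 0.00455% lower). At an unadjusted p under 0.05 there were 7, with 6 responses higher in mutants and 1 lower: cldn7a, cldne, cldnf, CLDND1, CLDN23, cldnk and cldn8.2. How many of all genes passed that cut was not counted, so the 7 have no background beside them. DESeq2's Wald test called 2, cldn7a and cldne, among 374 of all genes, where edgeR called 23 of all genes. The difference was 1.74 ± 0.45 for cldne on the log2 scale (adjusted p = 0.237 in edgeR, 0.0174 in DESeq2) and 0.92 for cldnf (adjusted p = 0.536). For cldnb it was 0.04 (adjusted p = 0.99), and 0.84 without replicate 2 of the siblings at 3 h (adjusted p = 0.112). The median difference of the 35 genes was -0.32, against -0.14 over all genes, and 0.30 without that library, when cldn7a alone was called (0.84% of all genes called).

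Claudins work with other proteins of the junction: occludin and tricellulin in the membrane, ZO and cingulin proteins beneath it, and polarity proteins that place it. A list of 62 such names matched 55 genes, of which 52 were tested. In mutants against siblings 2 were higher and 0 lower in homeostasis by edgeR's quasi-likelihood test. At an unadjusted p under 0.05 there were 8 higher and 1 lower, and DESeq2's Wald test called 3 and 1, among 1827 of all genes. The share of all genes at the unadjusted cut was not counted. By edgeR 11 were higher and 1 lower at 3 h, and the medians of both comparisons were 0.10 and 0.45 on the log2 scale. The share of partners called was 3.85% in homeostasis, beside 3.57% of all tested genes, and at 3 h 12 of 52 partners were called, beside 9.78%. In siblings 3 rose and 13 fell after neomycin (median -0.29), and in mutants 6 rose and 1 fell (median 0.04). That was 30.8% of partners in siblings, beside 22% of all tested genes, and 13.5% in mutants, beside 16.5%. Counts of partners moved with single libraries: in homeostasis 1 was higher without any 1 homeostasis library and 5 were higher without replicate 2 of the siblings at 3 h. At 3 h 6 were higher without mutant replicate 1 or 3, and in mutants the number that rose after neomycin ran from 1 without mutant replicate 2 or 3 in homeostasis to 11 without replicate 2 of the siblings at 3 h. Over all genes 407 were higher in homeostasis, 185 to 339 without 1 homeostasis library and 887 without that sibling library. At 3 h 1077 were higher, and 605 or 593 without mutant replicate 1 or 3. In mutants 1530 rose, 751 or 832 without mutant replicate 2 or 3 in homeostasis and 2924 without that sibling library.

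The gene amotl2b, an angiomotin-like scaffold that binds junctions and Yap, averaged 10.5 ± 1.85 CPM in siblings and 47.3 ± 4.08 in mutants in homeostasis, and 11.2 ± 4.84 and 92.2 ± 17.5 at 3 h (SD, n = 3). It was higher in mutants by 2.17 on the log2 scale in homeostasis (adjusted p = 0.00274) and by 3.04 at 3 h (adjusted p = 0.000208). Also higher in homeostasis was ILDR2, an angulin of three-cell contacts, by 1.65 (adjusted p = 0.0218), a call lost without any 1 homeostasis library (adjusted p 0.0502 to 0.106). The polarity gene pard6a averaged 35.6 ± 4.36 and 40.5 ± 1.65 CPM in homeostasis in siblings and mutants, and 23.9 ± 4.69 and 83.4 ± 7.96 CPM at 3 h (SD, n = 3). It was higher in mutants at 3 h by 1.80 (adjusted p = 0.00021). By edgeR on all libraries it was the single partner whose response was called different between genotypes (1.62, adjusted p = 0.0465). DESeq2's Wald test called 3 partners there, among 374 of all genes. The edgeR call was lost without any 1 library other than replicate 2 of the siblings at 3 h (adjusted p 0.0624 to 0.197). Tricellulin, listed as MARVELD2 (ENSDARG00000025076), was higher in mutants at 3 h by 0.93 (adjusted p = 0.00422), and the adhesion receptor CXADR by 1.13 (adjusted p = 0.00434).

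After neomycin the scaffold MAGI3 (ENSDARG00000025974) fell in both genotypes, from 26.7 ± 3.14 to 4.35 ± 2.33 CPM in siblings and from 13.2 ± 2.09 to 2.33 ± 0.447 CPM in mutants (SD, n = 3). Its log2 fold changes were -2.61 in siblings (adjusted p = 0.000183) and -2.50 in mutants (adjusted p = 0.000415). In siblings both cingulin genes also fell, cgnb by a log2 fold change of -1.24 (adjusted p = 0.00104) and cgna by -1.23 (adjusted p = 0.00291), as did a second MAGI3 gene (ENSDARG00000101869) by -1.22 (adjusted p = 0.00255). In mutants pard6a rose by 1.04 (adjusted p = 0.00228), lsr, which draws tricellulin to three-cell contacts, by 0.90 (adjusted p = 0.0118), and the polarity kinase PRKCI by 0.75 (adjusted p = 0.0168). The call of lsr was lost without mutant replicate 2 or 3 in homeostasis or mutant replicate 2 at 3 h (adjusted p 0.0506 to 0.0544), and that of PRKCI without any mutant replicate in homeostasis or mutant replicate 3 at 3 h (adjusted p 0.0614 to 0.0833).

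Of 24 names of transcription factors known to act on claudin genes or on epithelial junctions, 23 matched and 20 were tested. In homeostasis 0 differed between genotypes by edgeR's quasi-likelihood test, and 3 were higher at an unadjusted p under 0.05, a cut at which all genes were not counted. DESeq2's Wald test called 2 of the factors there, among 1827 of all genes. At 3 h 3 were higher in mutants and 2 lower, or 25% of the factors beside 9.78% of all tested genes. After neomycin 15% were called in siblings, beside 22% of all tested genes, and 10% in mutants, beside 16.5%. The repressor snai2 was higher by 1.35 on the log2 scale (adjusted p = 0.0164) and the epidermal barrier factor grhl3 by 1.43 (adjusted p = 0.0258). Lower were snai1a (-1.32, adjusted p = 0.00998) and twist1b (-1.31, adjusted p = 0.0188). The calls of snai2, grhl3 and twist1b were each lost without 1 or more of the mutant libraries at 3 h, and that of grhl3 also without sibling replicate 3 (adjusted p 0.0532 to 0.0884). After neomycin grhl2a, a member of the family that switches on claudin genes in mouse epithelia, fell in siblings by a log2 fold change of -0.99 (adjusted p = 0.00574) and in mutants by -1.42 (adjusted p = 0.000876). In mutants ovol1b rose by 1.18 (adjusted p = 0.00776), and in siblings twist1b rose by 1.06 (adjusted p = 0.0232) and twist1a by 0.91 (adjusted p = 0.04). The twist1b rise was lost without sibling replicate 2 or 3 in homeostasis or sibling replicate 1 at 3 h (adjusted p 0.0676 to 0.0786), and the twist1a rise in 10 of the 12 fits without 1 library (adjusted p 0.0508 to 0.148).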

How the data were processed

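Raw gene counts of 12 RNA-seq libraries were used as deposited, keyed by Ensembl ID. Per the submitters' processing notes, the genome build was danRer11 and the tools included STAR 2.7.3a, RSEM, Bowtie2 and bcl2fastq 2.18. Which tool did which step, and the annotation release, is not given in the sources used here. SMART-Seq v4 was used, per the labels' protocols, a kit that does not mark strand. The 4 entries that name no gene (28.2% to 35.2% of reads in a library) were left out. Depth per library was 23918226 to 30354161 counts in genes. ATAC-seq (18 samples) was not analysed here.

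Genes were kept by edgeR's filterByExpr (22000), scaled by TMM and fitted with a mean per group over all 12 libraries, giving a common dispersion of 0.104. Contrasts were tested two-sided with edgeR 4.0.16's quasi-likelihood test and Benjamini-Hochberg adjustment over all tested genes. The SE is the absolute log2 fold change over the root of F, and CPM is the count scaled to the TMM-adjusted library size. Alternatives were other scalings, no filter, DESeq2 1.42.0, fits of only the 2 groups compared, a replicate block and each library left out. Replicate numbers are shared by the groups with no stated meaning. Deviations of same-numbered libraries from their group means correlated at 0.30, 0.46 and 0.19 between genotypes at 3 h, all over 0.1. There the numbers may mark pairs, a reading of these data that the labels do not state. The tests leave pairing out except where a block is named, and the block was an alternative fit over all 4 groups. The 0.46 involves replicate 2 of the siblings. Between genotypes, a differently numbered pair reached 0.15 at 3 h and another 0.20 in homeostasis. In each other comparison at least 1 pair fell below 0.1. No pair of replicates agreed within sampling noise (chi-square per degree of freedom 14.2 to 278). The design text calls them biological triplicates, but separate clutches are not stated, so the p-values cover only the spread among these libraries, which may be technical.

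Members, gene lists and roles were chosen with earlier results of these data known. Values in every library are given for up to 8 claudins per comparison with the smallest adjusted p under 0.05 and for the 8 with the highest mean CPM, and other claudins are given by range and count or named where a count of 5 or fewer needs it. Partners and transcription factors are named up to 4 per comparison. Symbols came from a name table that often gives human symbols, 33 members matched RefSeq's GRCz12tu table by symbol, and 12 of these overlap another gene there. That assembly is not the build of the counts, so no coordinates are printed. A planned search of promoter motifs was not run.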

Additional observations from a re-analysis of the deposited data

Results flagged for a closer look

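The libraries of cldn7a lay on opposite sides in the genotypes after neomycin: every sibling library at 3 h lay below every sibling library in homeostasis, as for 17.2% of all genes, and every mutant library at 3 h lay above every mutant library in homeostasis, as for 20.8% of all genes. The fall in siblings passed (log2 fold change -1.85, adjusted p = 0.00167), and the mutant value did not (0.51, adjusted p = 0.292). The difference between both responses was 2.37 on the log2 scale. Its adjusted p was 0.0855 by edgeR's quasi-likelihood test over all genes, so it did not pass. In edgeR it passed without replicate 2 of the siblings at 3 h (adjusted p = 0.0362). DESeq2's Wald test on all 12 libraries called it too (2.43, adjusted p = 8.72e-05), among 374 of all genes, where edgeR called 23. With the replicate as a block, edgeR called 0 claudins for the interaction. CPM of cldn7a was between 0.608 and 7.32. The mutant gap was narrow, with the lowest library at 3 h at 4.20 CPM and the highest in homeostasis at 4.11 CPM. The share of all genes with both patterns was not counted.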

How the results depend on the processing

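Of the 23 claudin calls in the 5 comparisons, 9 were kept in all 12 fits without 1 library and 7 in every alternative: CLDN5 (ENSDARG00000014059) in both genotype comparisons, cldn7a, cldne and cldnf between genotypes at 3 h, the fall of cldn7a in siblings and the rise of cldne in mutants. No claudin value named in the text changed sign in any alternative while called.

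The number of claudins higher in mutants in homeostasis was 4, became 7 with DESeq2 and 7 with the replicate block, and ran from 1 to 8 without 1 library each. At 3 h 10 were higher and 1 lower, against 6 and 0 when only the 2 groups compared were fitted, and 6 to 13 higher and 0 to 1 lower without 1 library. In siblings after neomycin 1 rose, against 2 with no composition scaling, 5 with DESeq2, 0 with only the 2 groups, 3 with the replicate block, and 0 to 4 without 1 library. In mutants 6 rose, against 10 with DESeq2, 10 with only the 2 groups, and 1 to 8 without 1 library. For the interaction 0 passed, against 2 with DESeq2 and 0 to 1 without 1 library, and it was not run with only the 2 groups compared. Over all genes DESeq2 called more than edgeR in each comparison, from 374 against 23 for the interaction to 6022 against 4831 in siblings. With only the 2 groups compared, calls over all genes rose from 785 to 2217 in homeostasis and from 3634 to 6150 in mutants. They dropped from 2151 to 625 between genotypes at 3 h and from 4831 to 2287 in siblings. The cause of these shifts was not tested. Where a library is left out, the spread is still pooled over all groups. Over all genes, fits without 1 library gave 185 to 887 higher in homeostasis and 593 to 1603 higher at 3 h. In those fits 1324 to 2731 genes rose in siblings and 751 to 2924 in mutants, and 3 to 190 were called for the interaction.

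The replicate numbers were read as possible pairs only between genotypes at 3 h, a reading drawn from these same data, and the main fit held no pairing. The block there gave 12 claudins higher and 1 lower, with cldn3d and CLDN23 added, and changed no other claudin call. Over all genes the block called 2789 there, against 2151 without it. In the other comparisons the numbers were not read as pairs. There the block added cldn3d, cldn23.1 and cldne in homeostasis (adjusted p 0.0238, 0.0324 and 0.0196), cldn8.2 and cldna in siblings (adjusted p 0.00826 and 0.00692) and cldnb in mutants (adjusted p = 0.0327). Over all genes the block called 1210 against 785 in homeostasis, 5336 against 4831 in siblings and 4166 against 3634 in mutants. In all, 9 of 12 libraries correlated best with their own number, a hint from the data and not from the design. Depth limits the claudins under 1 CPM most, and intervals between replicates also depend on 3 libraries per group.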
